A study of Mus musculus with 6 samples.

Results

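Among the genes that restrain the growth kinase complex mTORC1, Ddit4 and Sesn2 had higher RNA levels in cultured mouse spermatogonia that had received Cre against floxed Cdkn1c, while the TSC and mTOR core genes stood close to their control levels. Ddit4 RNA was 2.09-fold and Sesn2 RNA 1.58-fold the control level. The 9 genes described here are Ddit4, Sesn1, Sesn2, Sesn3, Tsc1, Tsc2, Deptor, Mtor and Rptor, 9 of the 32285 genes in the count table. They were chosen by gene name, as stress-induced mTORC1 inhibitors with the TSC and mTOR core genes, when the measured differences between p57 KO and control libraries were already known. Their fold changes and calls are therefore given as a description, with no p-value.

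RNA was measured in GS cells, long-term cultures of testis germ cells that behave as spermatogonial stem cells. All 6 libraries came from cells in which loxP sites flank part of Cdkn1c, the gene of the cyclin-dependent kinase inhibitor p57. Going by their labels, 3 libraries had the genotype p57 flox/flox (control) and 3 the genotype p57 flox/flox-Cre (p57 KO), in which an adenovirus had brought Cre recombinase into the cells. The cells were harvested 2 days after infection, dispersed with trypsin and purified on a Sephadex G15 column. The growth protocol gives the age of the donor mice as 3 days and the design text as 10 days, and the labels name BDF1 as the model while the design text names C57BL/6 and 129. The sources used here do not say whether a virus without Cre was given to control cells or which part of the gene is removed, so effects of infection, of Cre and of the deletion cannot be told apart. Nothing in the labels tells separate cultures from repeat libraries of one culture, so the tests measure only how far these libraries differ, which may be technical.

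mTORC1 is a protein kinase complex, built from the kinase mTOR (Mtor) and the scaffold raptor (Rptor), that drives protein synthesis and growth when nutrients and growth factors are plentiful. The TSC complex of hamartin (Tsc1) and tuberin (Tsc2) holds it back by switching off the small GTPase Rheb. REDD1 (Ddit4) acts through the TSC complex, sestrins (Sesn1, Sesn2, Sesn3) act mainly on the amino acid sensing branch, with Sesn2 a leucine sensor upstream of the GATOR complexes, and Deptor binds mTOR itself. Ddit4 and the sestrin genes are known targets of stress-response transcription factors, among them p53, ATF4, FOXO factors, HIF and the glucocorticoid receptor. In spermatogonial stem cells, the transcription factor PLZF (Zbtb16) is known to oppose mTORC1, in part through Ddit4.

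The total count per library lay between 15662833 and 17893671, and the counts of the 9 genes between 443 and 5457. Levels are normalised read counts in CPM, counts scaled to a common library total with TMM factors, given per library or as mean ± SD. All 9 genes passed the filter on low counts, as did 14814 genes in all. A gene was called at an edgeR adjusted p below 0.05, and "rose" and "fell" are used for called genes. Cdkn1c, the targeted gene, had a mean of 20.7 ± 0.782 CPM in the control and 8.89 ± 0.486 CPM in the p57 KO libraries (SD, n = 3). It fell by 1.22 on the log2 scale (SE 0.09, edgeR adjusted p = 4.07e-09) and was lower in each p57 KO library than in any control library. Its exons overlap those of Gm44732 on the other strand over 30.7% of their bases, and the sources used here do not give the strand setting of the counting.

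The labels call the cells spermatogonia, and the germ cell genes Dazl and Ddx4 were abundant in both groups, at 1120 and 401 CPM in control and 939 and 389 CPM in p57 KO. The summed level of 12 markers of undifferentiated spermatogonia was 2510 to 2590 CPM in control and 2110 to 2240 CPM in p57 KO, and 9 of them fell. The summed level of 24 fibroblast and feeder cell markers was 1030 to 1320 CPM in control and 1610 to 3170 CPM in p57 KO, with 20 of the 24 higher in each p57 KO library than in any control library, 6 called and none at 0. The most abundant, Fn1 (fibronectin), went from 414 to 842 CPM. For comparison with the marker counts of this paragraph, the groups did not overlap, in either direction, in 39.2% of all tested genes. The share called was 23.3%, with 11.6% higher and 11.6% lower. In bulk RNA, fewer cells of a type and less RNA per cell cannot be told apart. Endothelial markers summed to 124 to 132 CPM in control and 134 to 141 CPM in p57 KO, macrophage markers to no more than 28.8 CPM, Sertoli cell markers to 33.5 to 39.7 and 37.0 to 39.2 CPM and Leydig cell markers to no more than 3.94 CPM. Each of these lists had 1 gene at 0 in all control libraries (C1qb, Emcn, Fshr and Hsd3b1), while others were present, such as Kdr at 63.9, Sox9 at 17.8 and Cd68 at 12.4 CPM in control. Of the 4 tested macrophage markers Cd68, Cd14 and Lyz2 rose and Mrc1 fell, and of 5 tested endothelial markers 2 rose and 2 fell. Their part in the results was not tested.

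The promoter sequences of the genes that rose most, Ddit4 and Sesn2, are printed here because both genes are known targets of several stress factors. That of the inner start site of Sesn1 is printed too, as the only one of these windows with a match to the p53 half-site. Sequences are those of RefSeq (GRCm38.p6), read 5′ to 3′ on the gene's strand, and end where the first exon annotated by GENCODE begins or, for Sesn1, at the RefSeq start. Capitals mark matches to the motifs searched.
Ddit4, chr10:59951835-59952020, minus strand: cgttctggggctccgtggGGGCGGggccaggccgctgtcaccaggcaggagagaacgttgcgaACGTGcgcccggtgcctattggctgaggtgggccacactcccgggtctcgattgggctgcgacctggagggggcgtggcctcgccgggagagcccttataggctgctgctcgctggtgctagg
Sesn2, chr4:132510502-132510706, minus strand: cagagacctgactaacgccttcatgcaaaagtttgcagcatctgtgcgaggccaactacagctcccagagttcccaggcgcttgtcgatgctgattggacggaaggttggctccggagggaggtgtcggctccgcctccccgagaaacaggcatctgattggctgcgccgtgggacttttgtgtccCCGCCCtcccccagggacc
Sesn1, inner start, chr10:41887189-41887438, plus strand: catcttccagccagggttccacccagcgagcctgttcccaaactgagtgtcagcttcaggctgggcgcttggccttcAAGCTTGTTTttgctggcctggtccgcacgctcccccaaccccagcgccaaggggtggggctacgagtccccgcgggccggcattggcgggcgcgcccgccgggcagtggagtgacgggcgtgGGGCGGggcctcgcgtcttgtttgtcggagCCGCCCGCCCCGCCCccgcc

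Windows of 250 bases before to 50 bases after the RefSeq start were found for 8 of the 9 genes, Sesn1 with 2 start sites. Deptor had no entry. Motifs were searched on both strands. The GC box GGGCGG was present in 5 of the 8 genes (Ddit4, Sesn1, Sesn2, Sesn3 and Mtor) and in 35.7% of all 32851 windows. Its match lay 232 bases before the RefSeq start in Ddit4 and 64 bases before it in Sesn2. The hypoxia element core ACGTG, which also lies within the E-box CACGTG, was present in 2 of the 8 genes, 187 bases before the start of Ddit4 and 34 bases before that of Rptor, and in 19.6% of all windows. The p53 half-site RRRCWWGYYY, not a full p53 site, matched 1 of the 8 genes and 8.36% of all windows. The match lay 173 bases before the inner start of Sesn1, in the printed stretch AAGCTTGTTT. The FOXO element TGTTTAC was found in 1 of the 8 genes, within the bases after the outer start of Sesn1, and in 3.65% of all windows. The ATF4 and C/EBP element TGATGNAAN, the cyclic AMP element TGACGTCA, the E-box and the TATA box TATAAA matched none of the 8 genes, against 3.95%, 1.79%, 7.15% and 13.6% of all windows. Ddit4 and Sesn2 thus shared the GC box alone among the searched motifs in these windows. Over the 250 bases before the start, GC content was 70.0% in Ddit4, 63.2% in Sesn2, 70.0% and 71.2% in Sesn1, 59.6% in Sesn3, 54.4% in Tsc1, 62.8% in Tsc2, 54.4% in Mtor and 37.6% in Rptor, against a median of 52.4% (quartiles 45.2% and 61.2%) over all windows.

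Of the 9 genes, 3 rose (Ddit4, Sesn2 and Tsc2), none fell and 6 were not called. DESeq2 gave the same numbers, and no member was lower at an unadjusted p under 0.05 in edgeR or DESeq2. Over all tested genes 23.3% were called, 11.6% higher and 11.6% lower. Because the members were selected on the same contrast, nothing is read from the comparison of these shares. The median log2 fold change was 0.041 for the members, with a range from -0.097 to 1.065, and -0.002 for all tested genes. The groups did not overlap in 4 members (Ddit4, Sesn2, Tsc2 and Rptor) and in 39.2% of tested genes, 5808 of 14814.

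**Figure D1:**
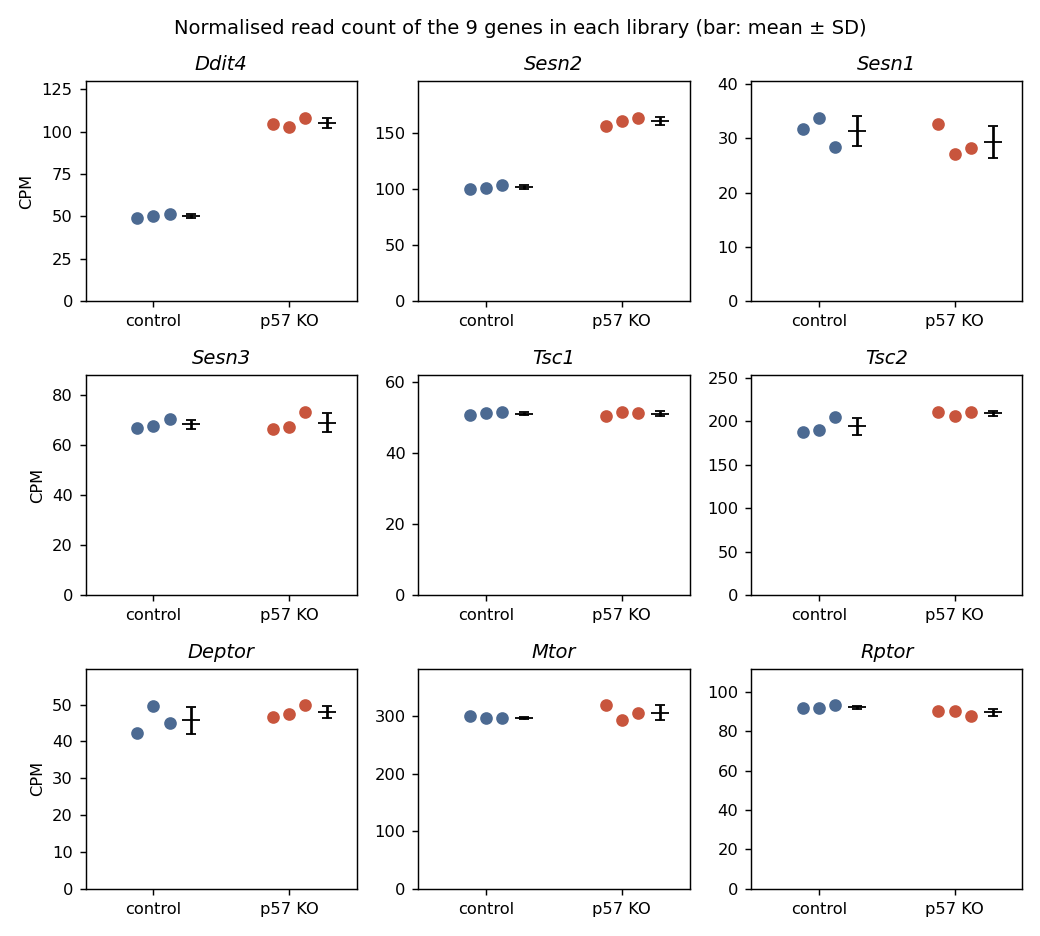
Normalised read count (CPM, vertical axes from 0) of each of the 9 genes in the 3 control and 3 p57 KO libraries, each point 1 library and each bar the mean ± SD. Ddit4 goes from 50.2 to 105 CPM and Sesn2 from 101.7 to 160.7 CPM with no overlap, while Sesn1, Sesn3, Tsc1, Deptor and Mtor overlap between groups.

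Ddit4 encodes REDD1, a short protein induced by hypoxia, DNA damage and glucocorticoids that restrains mTORC1 through the TSC complex. The gene spans 59949669 to 59951834 on chromosome 10 (minus strand, mm10, GENCODE M21), with no exon of another gene over it. Ddit4 stood at 48.83, 50.43 and 51.39 CPM in the control libraries and at 104.5, 102.6 and 108.1 CPM in the p57 KO libraries. The p57 KO libraries were close to each other and all well above the control libraries, which were equally tight. The means were 50.2 ± 1.29 and 105 ± 2.80 CPM (SD, n = 3), a log2 fold change of 1.07 (SE 0.04). The raw counts behind these levels were 805, 857 and 804 in control and 1656, 1685 and 1930 in p57 KO. When a marker score, the average of log2 CPM over the fibroblast and feeder list, was added to the model as a covariate, the log2 fold change of Ddit4 was 1.015 (SE 0.078). Over the 13 alternative analyses it ran from 1.015 to 1.08 and Ddit4 was called in each.

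Sesn2 encodes sestrin 2, the leucine-binding sestrin that inhibits GATOR2, an activator of mTORC1 signalling, when leucine is scarce, and is induced by oxidative and endoplasmic reticulum stress. The gene spans 132492032 to 132510501 on chromosome 4 (minus strand). Sesn2 stood at 100.2, 101.1 and 103.8 CPM in control and at 156.8, 161.3 and 163.8 CPM in p57 KO. All p57 KO libraries lay above all control libraries, with little spread in either group. The means were 101.7 ± 1.89 and 160.7 ± 3.55 CPM (SD, n = 3), a log2 fold change of 0.66 (SE 0.03). It was 0.61 (SE 0.06) with the marker score in the model, ran from 0.61 to 0.68 over the 13 alternatives, and was called in each.

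The other sestrin genes, which encode close relatives of sestrin 2, did not pass the test. Sesn1, on chromosome 10 from 41809935 to 41908424 (plus strand), is a known p53 target. Its level was 31.79, 33.78 and 28.32 CPM in control and 32.56, 27.09 and 28.29 CPM in p57 KO, with the highest p57 KO library above the middle control library. The log2 fold change was -0.10 (SE 0.08). Sesn3, on chromosome 9 from 14275067 to 14333101 (plus strand), is a known FOXO target. It stood at 66.67, 67.38 and 70.24 CPM in control and at 66.14, 67.02 and 73.21 CPM in p57 KO, with a log2 fold change of 0.02 (SE 0.05). The groups of both genes overlapped, and the control spread of Sesn1 was the widest of the 9 genes, with a coefficient of variation of 8.84%.

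Weighed per kb of merged exons, which allows levels of different genes to be compared, the sestrin genes summed to 41.2, 42.0 and 41.6 CPM per kb in control and to 57.6, 57.6 and 59.0 CPM per kb in p57 KO. Sesn2 held most of this sum in every library. Its share was 70.4 ± 1.31% in control and 79.6 ± 1.16% in p57 KO (SD, n = 3), that of Sesn1 18.9 ± 1.61% and 12.7 ± 1.31%, and that of Sesn3 10.7 ± 0.296% and 7.75 ± 0.324%. With the longest annotated transcript as the length, the share of Sesn3 was 16.6 ± 0.438% in control and 12.3 ± 0.488% in p57 KO and that of Sesn2 65.1 ± 1.14% and 75.2 ± 1.09%, again with no overlap between groups. The lower shares of Sesn1 and Sesn3 stand beside levels of their own that overlapped between groups.

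The TSC genes encode the subunits of the complex through which growth factor and energy signals reach Rheb. Tsc2, on chromosome 17 from 24595816 to 24632630 (minus strand), encodes tuberin, the subunit that acts on Rheb. Its level was 187.9, 189.3 and 204.9 CPM in control and 211.0, 205.9 and 210.3 CPM in p57 KO. The groups did not overlap, but control replicate 3 stood next to the lowest p57 KO library. Tsc2 rose by a log2 fold change of 0.11 (SE 0.03). The call was lost without control replicate 1 (log2 fold change 0.08), without control replicate 2 (0.09) and with the marker score in the model (0.14, SE 0.06). Its exons overlap those of Pkd1 on the other strand over 7.2% of their bases. Without the strand setting, it is not known to which gene reads there were counted, or whether they were left out.

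Tsc1, on chromosome 2 from 28641228 to 28691167 (plus strand), encodes hamartin, which stabilises tuberin. Its level was 50.78, 51.2 and 51.58 CPM in control and 50.36, 51.74 and 51.19 CPM in p57 KO. The 6 libraries lay within a narrow band, and the log2 fold change was -0.0022 (SE 0.05). Per kb, the ratio of Tsc1 to Tsc2 was 0.215 ± 0.00871 in control and 0.199 ± 0.00521 in p57 KO. The groups did not overlap, but control replicate 3 (0.205) stood next to p57 KO replicate 2 (0.204).

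The complex itself is represented by its kinase, its scaffold and its bound inhibitor. Mtor, on chromosome 4 from 148448611 to 148557683 (plus strand), encodes the kinase. Mtor stood at 299.3, 296.6 and 296.2 CPM in control and at 318.6, 293.7 and 305.7 CPM in p57 KO. The p57 KO libraries lay on both sides of the control libraries, which were nearly equal. The log2 fold change was 0.04 (SE 0.03).

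Rptor, on chromosome 11 from 119602905 to 119899576 (plus strand), encodes raptor, which brings substrates to the kinase. It stood at 91.48, 91.51 and 93.06 CPM in control and at 90.44, 90.4 and 87.6 CPM in p57 KO. Every p57 KO library was below every control library by a small margin, and the gene was not called, with a log2 fold change of -0.04 (SE 0.04). Deptor, on chromosome 15 from 55112317 to 55259271 (plus strand), encodes an inhibitor that sits on mTOR in both of its complexes. Deptor was at 42.4, 49.73 and 44.93 CPM in control and 46.51, 47.54 and 49.79 CPM in p57 KO, and the groups overlapped. Its log2 fold change was 0.07 (SE 0.06).

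**Figure D2:**
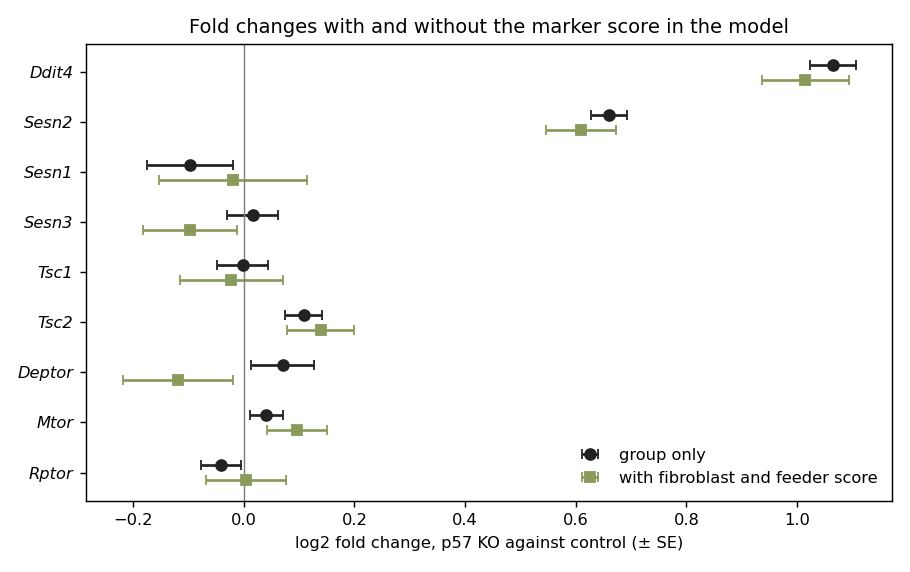
Log2 fold change (p57 KO against control, ± SE) of each of the 9 genes in the model with the group alone (circles) and with the fibroblast and feeder marker score added (squares). Ddit4 stays near 1 and Sesn2 near 0.6 in both models, while the other 7 genes lie between -0.119 and 0.139.

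With the marker score in the model, the log2 fold changes of Sesn3 (-0.10), Deptor (-0.12) and Rptor (0.004) had another sign than without it. Sesn1 was at -0.02, Tsc1 at -0.02 and Mtor at 0.10, and none of these 6 genes was called. The fold changes of Ddit4 and Sesn2 were nearly as large with the score as without it. The score itself did not overlap between groups, at 3.602 to 4.174 in control and 4.492 to 5.627 in p57 KO. With 6 libraries, the model therefore cannot fully separate the score from the group.

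Per kb of merged exons, the control order was Mtor (29.4 ± 0.165 CPM per kb), Sesn2 (29.3 ± 0.544), Ddit4 (28.6 ± 0.735), Tsc2 (20.2 ± 0.978), Sesn1 (7.86 ± 0.694), Rptor (6.83 ± 0.0672), Deptor (5.15 ± 0.419), Sesn3 (4.46 ± 0.124) and Tsc1 (4.33 ± 0.034). Sesn2 overlapped both Mtor and Ddit4 over the control libraries, and the highest Ddit4 library (29.28) lay just below the lowest Mtor library (29.3). Each neighbour from Tsc2 downward was separated from the next in all control libraries, by the smallest margin between Sesn3 and Tsc1.

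In p57 KO the order began with Ddit4 (59.9 ± 1.6 CPM per kb), Sesn2 (46.2 ± 1.02), Mtor (30.3 ± 1.23) and Tsc2 (21.7 ± 0.29), with no overlap between neighbours among these 4. The rest kept the control order, with Sesn1 at 7.36 ± 0.723 CPM per kb and Rptor just below it in all libraries at 6.64 ± 0.121. Deptor stood at 5.40 ± 0.189, Sesn3 at 4.51 ± 0.252 and Tsc1 at 4.32 ± 0.0588 CPM per kb, the last pair overlapping.

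The ratio of Ddit4 to Mtor per kb was 0.94, 0.979 and 0.999 in control and 1.89, 2.01 and 2.04 in p57 KO, and that of Ddit4 to Sesn2 0.978 ± 0.0113 and 1.30 ± 0.0318. By this length Ddit4 and Mtor were near parity in control, and Ddit4 exceeded Mtor in each p57 KO library. The order depends on the gene model. With the longest annotated transcript as the length, the control levels were 34.7 CPM per kb for Mtor, 31.0 for Tsc2, 29.3 for Sesn2, 28.6 for Ddit4 and 14.0 for Rptor, which put Tsc2 above the stress-induced genes and Rptor above Sesn1 (8.22), Sesn3 (7.46), Tsc1 (6.65) and Deptor (5.35). Ddit4 and Sesn2 have the same length under both models.

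**Figure D3:**
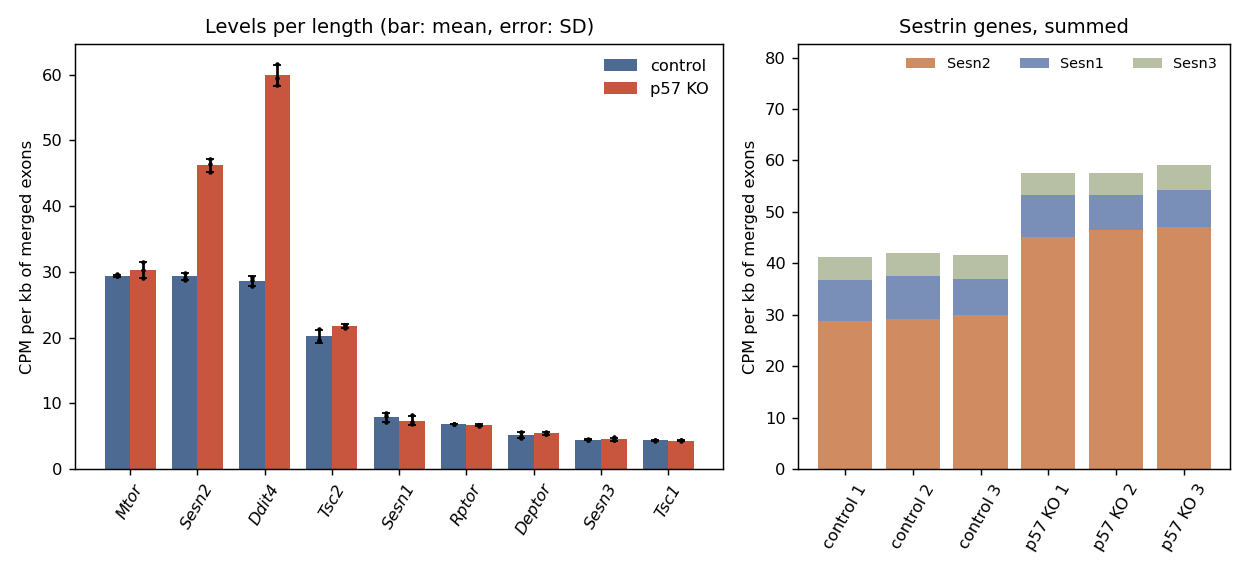
Left, level of the 9 genes in CPM per kb of merged exons (bars: mean of 3 libraries, error bars: SD, dots: libraries), ordered by the control level. Right, the sestrin genes stacked in each library, summing to 41.2 to 42.0 CPM per kb in control and 57.6 to 59.0 CPM per kb in p57 KO, with Sesn2 the largest part.

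Ddit4l, which encodes the REDD1 paralog REDD2, is the close relative of Ddit4 and was followed with the partners of mTORC1 and mTORC2. It was scarce, at 2.85, 3.06 and 2.24 CPM in control and 6.44, 6.64 and 7.79 CPM in p57 KO, and rose by 1.352 on the log2 scale (SE 0.16, edgeR adjusted p = 4.23e-06). Every p57 KO library stood above every control library. With the marker score in the model its log2 fold change was 1.001 (edgeR adjusted p = 0.0404).

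The p57 KO libraries differed from one another in their marker score while Ddit4 and Sesn2 hardly differed. Relative to the control mean, the score was 0.69, 1.27 and 1.83 log2 units higher in p57 KO replicates 1, 2 and 3. Ddit4 was 1.06, 1.03 and 1.11 log2 units higher in the same libraries, and Sesn2 0.63, 0.67 and 0.69. The Sesn2 levels followed the order of the scores and the Ddit4 levels did not, each over a narrow range. With 3 libraries and such close levels, neither order can be read. Whether the cells that express the markers had a part in these levels was not tested. Ddit4l had its highest value, 1.53, in the library with the highest score.

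**Figure D4:**
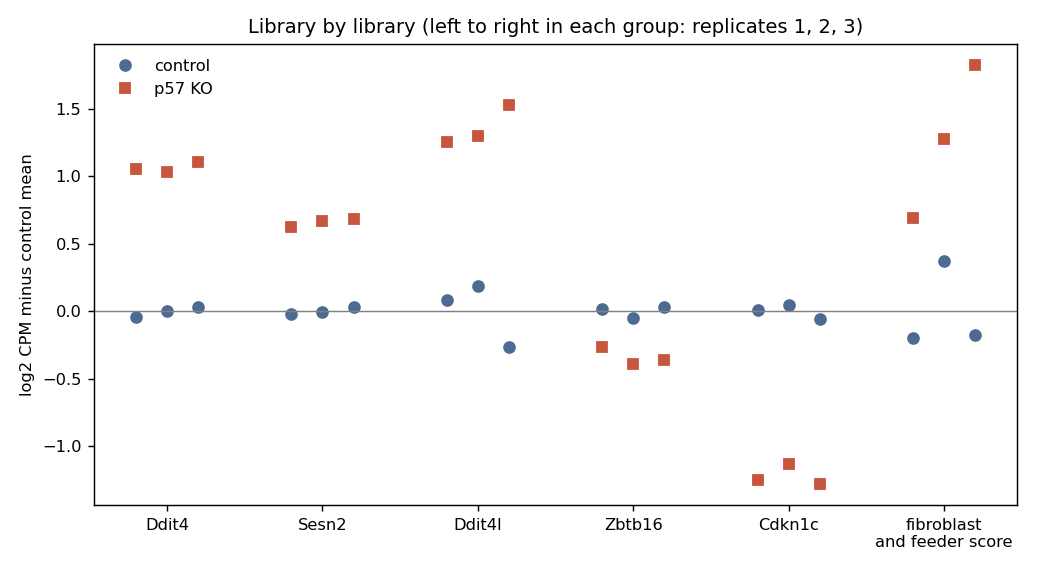
Log2 CPM minus the control mean in each library (replicates 1 to 3 from left to right) for Ddit4, Sesn2, Ddit4l, Zbtb16, Cdkn1c and the mean of the fibroblast and feeder markers. Ddit4 spans 1.03 to 1.11 and Sesn2 0.63 to 0.69 over the p57 KO libraries, while the marker score spans 0.69 to 1.83.

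The genes with the most similar profile over the 6 libraries were found by Pearson's r of log2 CPM among 9752 genes of at least 10 CPM. For Ddit4 they were Rps28 (r = 0.9995), Fat1 (0.9973) and Jun (0.9972). For Sesn2 they were Rps28 (0.9981), Zfp809 (0.998) and Fat1 (0.9975). These r values are a description over 2 groups of 3 libraries. The profiles had unlike sizes, since Rps28 had a log2 fold change of 0.25, Fat1 of 0.46 and Jun of 1.74. Rps28 is a ribosomal protein gene with near-identical copies in the genome, so its count is uncertain. For Tsc2 the nearest were Tob1 (0.9944), Actb (0.9942) and Adam23 (0.9938), with log2 fold changes of 0.09, 0.04 and 0.19.

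Lists of other pathway genes, chosen with results of these libraries known, were counted for the same contrast. Over all tested genes 23.3% were called, 11.6% higher and 11.6% lower. Of 12 tested partners of mTORC1 and mTORC2, 1 rose (Ddit4l) and 2 fell, with a median log2 fold change of -0.049. Rictor, the scaffold of mTORC2, went from 175.7 ± 0.490 to 147.3 ± 4.87 CPM and fell by 0.25 on the log2 scale (edgeR adjusted p = 5.97e-06). Telo2, which helps to stabilise mTOR and related kinases, fell by 0.18 (edgeR adjusted p = 0.00543). The 4 partners followed by name were not called. Mlst8, a subunit of both complexes, had a log2 fold change of 0.03, the mTORC1 inhibitor Akt1s1 (PRAS40) of 0.06, Rheb of -0.04 and Tbc1d7, a further subunit of the TSC complex, of -0.06. With the marker score in the model, Rictor and Telo2 were not called (adjusted p = 0.131 and 0.485).

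Of 27 tested genes of the Rag GTPases, the GATOR complexes and amino acid sensing, 2 rose and 7 fell (33.3% called, median -0.046). Sestrins act on this branch. Bmt2, which encodes the S-adenosylmethionine sensor SAMTOR, fell by 0.56 on the log2 scale (edgeR adjusted p = 3.22e-06), from 31.7 to 21.5 CPM. Rragd and Rraga, which encode Rag GTPases that carry mTORC1 to the lysosome, fell by 0.30 and 0.19, and Castor2, a gene of the arginine sensor family, by 0.28. The 2 that rose were Rragc and Lamtor2, named after their values were seen. The counts depended on single libraries, with 0 to 2 higher and 5 to 8 lower when 1 library was left out, none higher without control replicate 3, and 0 higher and 2 lower with the marker score.

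Of 26 tested genes of the PI3K, AKT and AMPK inputs, 2 rose and 6 fell (30.8% called, median -0.057). Igf1r, the receptor of insulin-like growth factors, fell by 0.30 on the log2 scale, from 314.7 ± 9.07 to 255.0 ± 10.5 CPM (edgeR adjusted p = 4.90e-07), and Akt1, a kinase that inhibits the TSC complex, rose by 0.19 (edgeR adjusted p = 0.00047). Without control replicate 3 only 2 fell and 1 rose, 3 fell without p57 KO replicate 3 and likewise with DESeq2, and 1 fell and none rose with the marker score. Of 22 tested substrates and outputs of mTORC1, 5 rose and 5 fell (45.5% called, median -0.02). Eif4ebp2, a translation repressor that mTORC1 inactivates, fell by 0.17 on the log2 scale, and Rps6, the ribosomal protein phosphorylated downstream of mTORC1, rose by 0.13. The latter has near-identical copies and its count is uncertain. Leaving out 1 library gave 3 to 4 higher and 1 to 4 lower, the lowest count being without p57 KO replicate 3, and with the marker score none was called by edgeR, with 4 higher and 1 lower at an unadjusted p under 0.05. Of 26 lysosome and autophagy genes, 2 rose and 2 fell (15.4% called, median 0.017). Sqstm1, an autophagy receptor, and Gabarap rose by 0.15 and 0.14, and Lamp2 and Atg12 fell by 0.15 and 0.12. Leaving out 1 library gave 2 to 5 higher, with 5 without p57 KO replicate 1, and 0 to 2 lower, with 0 without control replicate 3, and 0 were higher and 1 lower with the marker score. Levels of RNA do not measure the activity of the kinase, which was not analysed here.

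Among genes of the transcription factors known to act on Ddit4 and the sestrins, the p53 list was the one with the highest share of calls among the pathway lists. Of 26 tested genes, 21 rose and none fell (80.8%, median 0.385), against 11.6% higher over all tested genes and a median of -0.002. Plk2, a p53-induced kinase, rose from 59.2 ± 4.50 to 161.3 ± 9.45 CPM, by 1.45 on the log2 scale (edgeR adjusted p = 6.96e-09). Bbc3 (PUMA) and Bax, which promote cell death, rose by 1.22 and 0.35, and Zmat3 rose by 0.55. Trp53 itself was not called, at -0.06 (edgeR adjusted p = 0.252). Leaving out any 1 library left 19 to 21 higher and none lower, and the marker score left 12 higher and none lower (median 0.256). No gene of the list was lower at an unadjusted p under 0.05 in edgeR or DESeq2. Ddit4 and Sesn2 rose, as did 21 genes of this list, and Sesn1, also a p53 target, overlapped between groups. Whether p53 had a part in any of these levels was not tested.

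Of 26 tested ATF4 targets, 7 rose and 1 fell (median 0.027). The share called was 30.8%, against 23.3% over all tested genes. Atf4 rose from 99.7 ± 1.05 to 111 ± 3.15 CPM, by 0.15 on the log2 scale (edgeR adjusted p = 0.00317), and was not called with the marker score (0.23, adjusted p = 0.0635). The 7 that rose were Atf4 itself, Atf3 (from 1.58 to 8.23 CPM), Ddit3, also called CHOP (from 5.63 to 10.0 CPM), Cebpb, Atf5, Trib3 and Vldlr, and the gene that fell was Cars, which encodes a cysteinyl-tRNA synthetase (by 0.23 on the log2 scale). Of the list, 3 genes were lower without p57 KO replicate 1, and 2 when p57 KO replicate 2 was left out. With the marker score 1 rose and 1 fell. Ddit3 was then at 0.68 (adjusted p = 0.104).

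Of 16 FOXO factors and targets, 1 rose and 5 fell (37.5% called, against 23.3% over all tested genes, median 0.01). Foxo1 was down by 0.16 on the log2 scale and Foxo3 was at -0.06 (edgeR adjusted p = 0.181). Without p57 KO replicate 1 Foxo3 was called lower (-0.11, adjusted p = 0.0112). Of 17 tested hypoxia response genes, 3 rose and 4 fell (41.2% called, median 0.042). Vegfa rose by 0.66, Epas1 (HIF-2 alpha) and the glucose transporter gene Slc2a1 fell by 0.54 and 0.27, and Hif1a was at 0.04 (edgeR adjusted p = 0.488). Of 11 glucocorticoid response genes, 4 rose and 1 fell (45.5% called, median 0.15). The receptor gene Nr3c1 rose by 0.21. The other called genes of this list went both ways. Cebpd, Dusp1 and Mt2 rose by 1.09, 0.55 and 0.24, and Tsc22d3 (GILZ), a classical target of the receptor, fell by 0.24. Leaving out 1 library gave 2 to 5 higher and 1 to 3 lower for this list, with 2 higher without control or p57 KO replicate 2 and 3 lower without p57 KO replicate 3, and DESeq2 gave 6 higher. In the FOXO list 2 genes were higher when replicate 1 of either group was left out. With the marker score in the model none of the FOXO and glucocorticoid genes was called by edgeR. At an unadjusted p under 0.05, 2 FOXO genes were then higher and 2 lower, and 1 glucocorticoid gene was lower. Of the hypoxia genes 2 were called, both lower.

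Zbtb16, whose product PLZF is known to raise Ddit4 in spermatogonial progenitors, went the other way from Ddit4. It was at 313.8, 299.0 and 316.5 CPM in control and at 257.7, 236.9 and 241.5 CPM in p57 KO, with no overlap. Zbtb16 fell by 0.34 on the log2 scale (edgeR adjusted p = 3.99e-07), and by 0.21 with the marker score in the model (adjusted p = 0.0206). The fall was not particular to Zbtb16, which is among the 12 markers of undifferentiated spermatogonia, of which 9 fell. Of the factors known to act on Ddit4 that were followed by name, Zbtb16 fell, Atf4 and Nr3c1 rose, and Trp53, Foxo3 and Hif1a were not called.

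**Figure D5:**
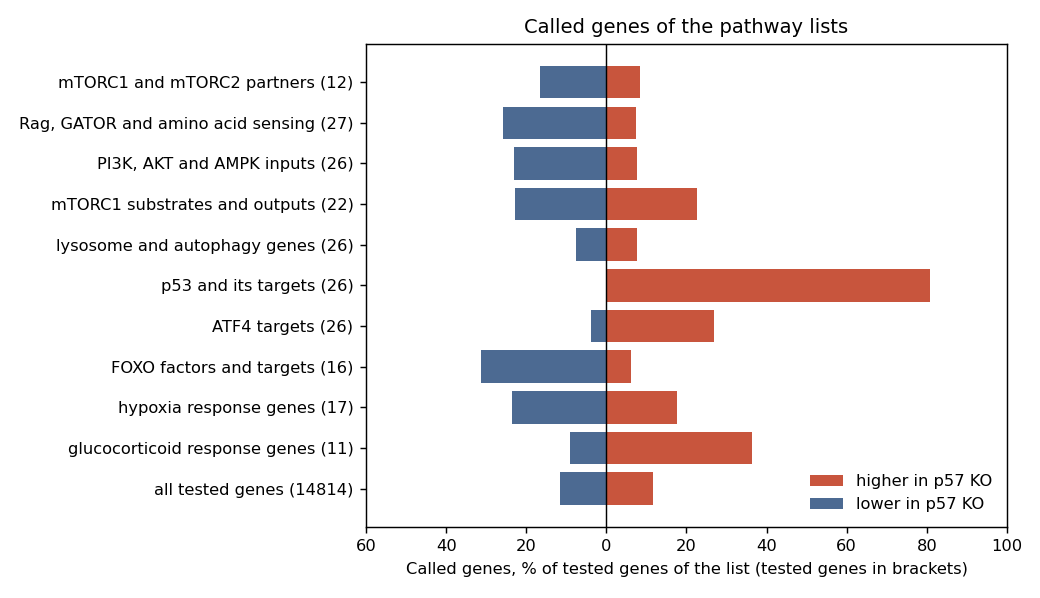
Share of the tested genes of each pathway list, and of all tested genes, that were called higher (to the right) or lower (to the left) in p57 KO, in percent, with the number tested in brackets. The p53 list reaches 80.8% higher with none lower, against 11.6% in each direction over all tested genes.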

How the data were processed

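The deposited values are raw counts of reads per gene, 1 column for each of the 6 libraries, and were not scaled by the authors, as the whole numbers show. The tools listed in the submitters' processing notes are HISAT2 2.2.1, HTSeq 2.0.2, cutadapt 3.4 and bcl2fastq 2.20, with mm10 as the build. No source used here gives the annotation, the strand setting or how multi-mapping reads were counted, so genes with overlapping or near-identical partners are uncertain. The kit is named differently in the labels and the design text, in both as stranded, and reads were single, of 76 bp.

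Genes with low counts were removed with filterByExpr, which left 14814 of 32285. Counts were TMM-scaled and tested with edgeR 4.0.16 (quasi-likelihood F-test, robust, group as the only term; limma 3.58.1, R 4.3.3) with Benjamini-Hochberg adjustment over all tested genes, and called at an adjusted p under 0.05. The standard error is the log2 fold change over the square root of F. Log2 CPM used a prior count of 2. A common biological coefficient of variation of 4.35% lets small differences of abundant genes pass the test. The scripts were tested on simulated data. Positions, exon lengths and overlaps came from GENCODE M21, which holds 32235 of the gene IDs, and promoter windows from RefSeq.

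The members and all lists were chosen with earlier results of these data known. Genes named beside the members are Cdkn1c, up to 4 called genes of smallest p per pathway list, fixed factors and partners (Zbtb16, Trp53, Atf4, Foxo3, Hif1a, Nr3c1, Ddit4l, Akt1s1, Mlst8, Rheb, Tbc1d7), and the 3 genes of at least 10 CPM most correlated with each called member. Marker genes, and Rragc, Lamtor2, Atf5, Trib3, Vldlr and Dusp1, were named after their values were seen.

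The alternatives were other tools (DESeq2 1.42.0, limma-voom), RLE scaling, other filters (none, or at least 1 CPM in 3 libraries), a block for the replicate number, leaving out each library, and the fibroblast and feeder marker score as a covariate. Replicates compared by chi-square over genes of at least 20 counts differed by more than sampling noise (chi-square per degree of freedom 1.69 to 5.97), so none was counted as a duplicate.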

Additional observations from a re-analysis of the deposited data

How the results depend on the processing

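Ddit4 and Sesn2 were called higher under each of the 13 alternatives. The members called were 3 in the other analyses and 2 with the marker score or without control replicate 1 or 2, the missing one being Tsc2. Over all genes, the marker score left 368 calls (220 higher, 148 lower), 340 of them among the original 3450, and DESeq2 gave 1044 lower and 2447 in all. Leaving out 1 library gave 2358 to 4029 calls. The sign turned with the score for Sesn3 (-0.098), Deptor (-0.119), Rptor (0.004), Akt1s1 (-0.26), Foxo3 (0.064), Hif1a (-0.04), Mlst8 (-0.091) and Tbc1d7 (0.131), and under the filter of at least 1 CPM in 3 libraries for Tsc1 (0.002). Leaving out 1 library moved Sesn3 between -0.032 and 0.042, Tsc1 between -0.014 and 0.006, and Tbc1d7 between -0.153 and 0.02. None of these values was a call. Of 637 values of 49 other named genes, 594 kept their direction and side of the threshold. The causes were not tested. With the replicate block 3706 genes and 3 members were called. Libraries of the same number deviated from their group means with correlations of 0.191, 0.025 and -0.102. Those of different numbers ran from -0.281 to 0.273. With 3 libraries per group, these values cannot show whether libraries of the same number share a culture or batch. Depth limits the precision of Ddit4l, with 35 to 139 counts per library, more than that of the members.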
